A study of Saccharomyces cerevisiae with 35 samples.

Results

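BY4743, the diploid laboratory strain of budding yeast, was followed from 30 min to 3 h in 0.7 M NaCl. The 3 h libraries (3) and the 30 min libraries (3), paired by replicate number, are 6 of the 35 libraries in the deposited table, and the 3 unstressed BY4743 libraries were used to tell which early changes recovered, held or began late. BY4743 is MATa/α and carries his3Δ1/his3Δ1, leu2Δ0/leu2Δ0, LYS2/lys2Δ0, met15Δ0/MET15 and ura3Δ0/ura3Δ0 in all of its libraries. The groups differ in their time in salt and, with it, in their time in culture. No unsalted cultures were sampled at the later times, so these cannot be told apart. Cultures were grown in rich glucose medium at 30°C before the salt, and each replicate number stands for a separate culture sampled at the 3 times. The wild strains BC187, NCYC3290 and YPS128, treated in the same way, gave 25 libraries of the fit, which share in its estimate of the spread and serve as a comparison. The labels list 0.7 M NaCl for the unstressed libraries too, and these are taken as collected before the salt, as the sampling text of the labels says. Only 1 laboratory strain was sampled, with its auxotrophic markers, and bulk RNA cannot tell fewer transcribing cells from less RNA per cell.

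A sudden rise in external salt draws water out of a yeast cell and brings sodium in. The high osmolarity glycerol (HOG) pathway, a mitogen-activated protein kinase cascade that ends in Hog1, responds within minutes and turns on glycerol synthesis and a large set of defence genes. In parallel the environmental stress response raises chaperones, oxidant defence and storage carbohydrate genes through Msn2 and Msn4, which bind the stress response element, and lowers genes for ribosomes and ribosome assembly, many of which carry the polymerase A and C (PAC) box or sites for Rap1. Once glycerol has built up and volume is restored, Hog1 is switched off and much of the early response subsides while growth resumes.

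Promoter stretches holding letters of both elements are shown first, because the shares of promoters with these letters are given for each class of genes further on. The stretches run from 250 to 101 bases before the start codon, 5′ to 3′ on the strand of the gene, and come from the R64 reference genome, the build the reads were mapped to. Capitals mark AGGGG, the core of the stress response element, on either strand, in RTC3, STL1, HSP12 and DDR2, and GATGAG, part of the PAC box, on either strand, in HPT1, RRS1, NOP1 and LIA1. Only the letters named for each gene are marked. The RTC3 stretch also holds GATGAG, and the HPT1 stretch also holds CCCCT, which is AGGGG on the other strand. The genes shown were taken from the 5 that led each class, and only from those with a match in that stretch. Of the 5 leading early induced genes per class, AGGGG lay there in 2 that later fell, 3 that held and 3 that went on rising. Of the 5 leading early repressed genes per class, GATGAG lay there in 3 that recovered, 2 that held and 1 that fell further.
RTC3: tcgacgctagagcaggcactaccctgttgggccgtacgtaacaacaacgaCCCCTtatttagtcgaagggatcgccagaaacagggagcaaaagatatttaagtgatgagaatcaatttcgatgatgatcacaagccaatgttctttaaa
STL1: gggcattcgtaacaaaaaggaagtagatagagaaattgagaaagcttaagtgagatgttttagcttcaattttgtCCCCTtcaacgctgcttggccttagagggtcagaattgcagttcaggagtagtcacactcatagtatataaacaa
HSP12: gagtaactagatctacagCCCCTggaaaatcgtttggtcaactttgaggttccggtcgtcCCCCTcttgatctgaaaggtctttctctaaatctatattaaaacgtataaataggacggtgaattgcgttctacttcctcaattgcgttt
DDR2: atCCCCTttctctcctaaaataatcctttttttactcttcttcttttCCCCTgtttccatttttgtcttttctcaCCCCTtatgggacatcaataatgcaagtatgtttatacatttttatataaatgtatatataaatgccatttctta
HPT1: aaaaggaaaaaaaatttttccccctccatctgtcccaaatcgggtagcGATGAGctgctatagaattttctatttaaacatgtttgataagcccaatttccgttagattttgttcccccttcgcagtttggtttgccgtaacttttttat
RRS1: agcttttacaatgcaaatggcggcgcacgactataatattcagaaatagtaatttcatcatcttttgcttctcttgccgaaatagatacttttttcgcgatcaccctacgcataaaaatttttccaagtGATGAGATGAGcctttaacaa
NOP1: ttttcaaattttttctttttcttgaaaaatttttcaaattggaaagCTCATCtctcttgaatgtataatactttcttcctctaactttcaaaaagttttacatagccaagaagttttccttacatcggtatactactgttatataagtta
LIA1: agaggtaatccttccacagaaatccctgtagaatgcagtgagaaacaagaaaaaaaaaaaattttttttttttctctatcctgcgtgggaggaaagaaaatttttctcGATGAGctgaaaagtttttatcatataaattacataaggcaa
RTC3 and STL1 were early induced genes that later fell, HSP12 held its induction and DDR2 went on rising. HPT1 and RRS1 were early repressed genes that partly recovered, NOP1 was classed as holding and LIA1 as falling further. Without the 30 min library of replicate 3, NOP1 passed the threshold as higher at 3 h (log2 fold change 1.25, adjusted p = 0.000109) and LIA1 no longer passed it (-0.28, adjusted p = 0.207). The stretches lie at chrVIII:280570-280719 (plus strand), chrIV:1507755-1507904 (plus), chrVI:107006-107155 (plus), chrXV:231856-232005 (minus), chrIV:1269818-1269967 (plus), chrXV:868090-868239 (plus), chrIV:427114-427263 (plus) and chrX:570699-570848 (minus).

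Some libraries stood apart. Total counts per library were 4136912 to 5783452 at 3 h and 3859650 to 5040110 at 30 min, and 3 counts, taken as the detection floor, equal 0.436 to 0.783 CPM over these 6 libraries. URA3 and LEU2, which the strain lacks, had 0 counts in all 9 BY4743 libraries, and genes of the haploid mating pathway were low (a summed 73.1 to 78.3 CPM over 12 genes at 3 h and 67.7 to 93.3 at 30 min). The 30 min library of replicate 1 held 66 genes at over 4-fold the level of both other 30 min libraries (with at least 50 counts), against 0 such genes in each of the other 8 BY4743 libraries. Of these 66 genes, 45 passed the threshold at 3 h versus 30 min with that library. Without it 3 of these 45 passed, along with 6 of the other genes, and 36 of the 66 were classed as early induced and recovering. With TMM, edgeR's correction for library composition, the 30 min library of replicate 3 stood apart in another way. Its cytosolic ribosomal protein genes were less reduced than in replicates 1 and 2. Early repressed genes chosen without replicate 3 of any strain had a median log2 change of -0.90 at 30 min in it. For genes chosen without replicates 1 and 2 in the same way, the medians in those were -1.59 and -1.44. Scaled by library totals, the medians in replicates 1, 2 and 3 were -1.25, -0.90 and -0.96, so replicate 3 did not stand apart by that measure. The TMM factors of these 30 min libraries were 1.258, 1.249 and 0.993.

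Between 3 h and 30 min, 2697 of 5997 genes tested (45.0%) differed at an adjusted p under 0.05 from edgeR's quasi-likelihood test with the culture as a block, of which 1328 (22.1%) were higher and 1369 (22.8%) lower at 3 h. Changes of at least 2-fold numbered 520 higher (8.67%) and 518 lower (8.64%). The median log2 fold change of all genes was -0.017. Counts of gene list members below are to be read against the 22.1% higher and 22.8% lower of all genes. The 3 h libraries lay wholly above the 30 min libraries for 1341 genes (22.4%) and wholly below them for 1363 (22.7%). Without the 30 min library of replicate 1 982 genes were higher and 983 lower, and without that of replicate 3 there were 1560 in each direction (alternatives added once the data had been examined). With replicate 1 of every strain left out there were 766 in each direction. Here and below, a fit without a culture lacks that replicate number in every strain, so fewer libraries set its spread. In a fit of the 9 BY4743 libraries alone 1914 genes passed. Adjusted p-values below are from the same edgeR fit over all genes, and CPM are counts scaled to a common library size after TMM, edgeR's correction for library composition.

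Early change was set as an adjusted p under 0.05 and at least 2-fold at 30 min against unstressed cells, which 1082 genes (18.0%) met as induced and 780 (13.0%) as repressed. Without the limit on size, 3592 genes (59.9%) passed at 30 min, 1895 (31.6%) higher and 1697 (28.3%) lower. Of the induced genes, 661 (61.1%) had moved back by 3 h, falling past the threshold against 30 min, 295 held, 56 went on rising and 70 were unresolved. Among the repressed genes, 447 (57.3%) had moved back, 282 held, 22 went on falling and 29 were unresolved. Genes that held did not pass the threshold at 3 h versus 30 min and still passed it against unstressed cells in the early direction. The remaining early genes were unresolved. No limit was set on the size of the later change, so a gene that held need not have stayed level. The 3 h and 30 min libraries did not overlap for 53 of the 295 induced and 36 of the 282 repressed genes that held. A further 63 genes were late induced and 26 late repressed, meaning a log2 change under 0.5 in size at 30 min and at least 2-fold at 3 h against both earlier times. The recovering genes numbered 504 induced and 332 repressed without the 30 min library of replicate 1, 756 and 654 without that of replicate 3, and 556 and 325 in the 9 BY4743 libraries alone. With each culture left out in turn the recovering repressed genes numbered 300 to 595, the highest without culture 3. These contrasts share the 30 min libraries, so the class counts are a description, and the rule itself sets the direction of each class.

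Recovery was often partial. The 661 recovering induced genes had a median log2 change against unstressed cells of 0.59 at 3 h and 1.77 at 30 min, and at 3 h 309 of them were still past the threshold above the unstressed level, 10 were past it below, and 342 did not pass it. The 447 recovering repressed genes had medians of -0.48 at 3 h and -1.51 at 30 min, with 218 still past the threshold below, 22 past it above and 207 not past it. For comparison, 2485 of all genes (41.4%) differed at 3 h from unstressed, and 1337 (22.3%) were higher and 1148 (19.1%) lower at 3 h than unstressed. Scaled by library totals in place of TMM, the median of all genes shifted by -0.139 at 3 h versus 30 min, by 0.290 at 30 min versus unstressed and by 0.148 at 3 h versus unstressed. The share of higher calls then went to 42.2% from 49.2%, to 68.1% from 52.8% and to 66.5% from 53.8% in these 3 comparisons, and the recovering repressed genes numbered 274.

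**Figure D1:**
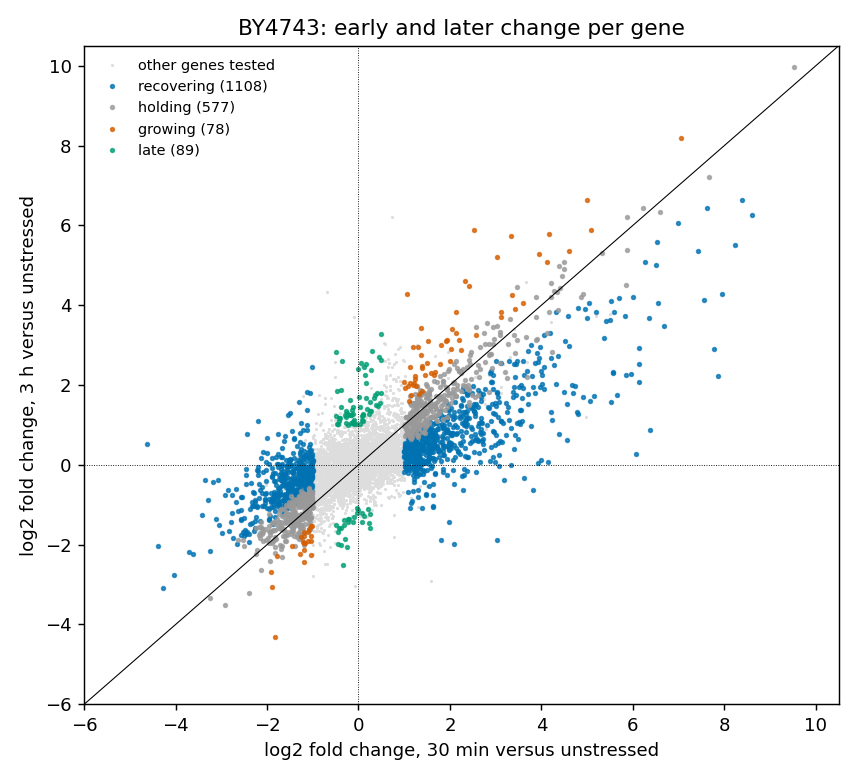
Each point is 1 of the 5997 genes tested in BY4743, with its log2 fold change at 30 min versus unstressed on the x axis and at 3 h versus unstressed on the y axis. Coloured points are the classes set by the rule, recovering (1108 genes), holding (577), growing (78) and late (89), and the diagonal marks equal change at both times.

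The 30 min libraries enter both the choice of early genes and their later change. Early genes were therefore also chosen without 1 replicate number, in every strain, and followed in the BY4743 culture of that number. In cultures 1, 2 and 3, 78.3%, 74.2% and 73.7% of the early induced genes moved back between 30 min and 3 h, with median log2 changes of -0.69, -0.59 and -0.49. For early repressed genes 81.7%, 78.8% and 63.2% moved back, with medians of 0.82, 0.58 and 0.22. The median over all genes in the same cultures lay between -0.0098 and 0.0011. Over 60% of the early genes moved back in each culture. Scaled by library totals, 86.6%, 84.2% and 61.1% of induced genes moved back in cultures 1, 2 and 3. For repressed genes the shares were 70.0%, 63.1% and 77.3%, so the order of the cultures depended on the scaling. Medians of gene lists per culture, given below, use TMM.

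Genes of glycerol synthesis fell between 30 min and 3 h, after early rises past the threshold in 3 of 4. GPD1 (YDL022W, chromosome IV, 411825 to 413000), which encodes the enzyme of the first step of glycerol synthesis, had 94.7, 169.9 and 123 CPM unstressed, 4826, 5212 and 6277 at 30 min and 1611, 1631 and 1372 at 3 h in replicates 1 to 3. All 3 h libraries lay below all 30 min libraries and above all unstressed ones (log2 fold change -1.82 at 3 h versus 30 min, SE 0.24, adjusted p = 2.43e-06). GPP2, the salt-induced phosphatase of the second step, had 60.7, 55 and 49.2 CPM unstressed, 2702, 2831 and 2446 at 30 min and 645, 813 and 910.1 at 3 h. All 4 genes of glycerol synthesis were lower at 3 h than at 30 min, with a median log2 fold change of -1.43. Without culture 3, or without the 30 min library of replicate 3, 3 of them were lower. At 3 h 2 were above and 1 below the unstressed level past the threshold. The list's median against the unstressed mean was 1.41, 1.79 and 1.49 in the 3 h libraries and 2.86, 3.00 and 3.17 in the 30 min libraries. STL1 (YDR536W, chromosome IV, 1508005 to 1509714), the proton symporter that takes glycerol up, had 6.6, 7.43 and 7.81 CPM unstressed, 1881, 2290 and 2405 at 30 min and 336, 304 and 359.7 at 3 h. It fell by 2.71 on the log2 scale and stayed 5.52 above the unstressed level on that scale. In contrast GCY1, a glycerol dehydrogenase of the breakdown route, was higher at 3 h, with 98.6, 83.8 and 129 CPM against 40.2, 42.3 and 38.1 at 30 min.

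Of 14 osmostress targets, 9 were lower and 2 higher at 3 h than at 30 min, and all 14 remained above the unstressed level past the threshold. RTC3 had 2.91, 4.88 and 6.28 CPM unstressed, 1689, 1584 and 1336 at 30 min and 395, 389.8 and 637 at 3 h. GRE2, a methylglyoxal reductase, had 302, 377 and 328 CPM at 3 h against 1118, 1200 and 1121 at 30 min (log2 fold change -1.78, adjusted p = 4.76e-07). FMP48, a kinase-like gene, fell by 3.20 on the log2 scale, to 55.8, 71 and 57.1 CPM at 3 h against 560.2, 599 and 516 at 30 min. PHM7, with the largest early log2 change among the recovering genes (8.6), had 2.72, 3.82 and 2.89 CPM unstressed, 1172, 1235 and 1259 at 30 min and 251, 214 and 254 at 3 h. None of these genes had 3 h and 30 min libraries that overlapped. Genes of the HOG cascade itself moved both ways, with 6 of 25 higher and 10 lower (2 and 8 without culture 2). Among the lower were SSK1, an activator of the cascade on the Sln1 branch (-1.2), the transcription factor gene MSN2 (-1.25) and SMP1, another transcription factor gene downstream of Hog1 (-1.4).

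Sodium and proton transport showed no common direction, with 4 of 14 genes higher and 4 lower (1 lower without culture 1, 2 without culture 3). HAL5, a kinase of cation tolerance, had 117, 153 and 184 CPM unstressed, 354, 371 and 296 at 30 min and 95.2, 83.7 and 107 at 3 h, and ended below its starting level (log2 fold change -0.66 at 3 h versus unstressed, adjusted p = 0.0078). PMA1, the plasma membrane proton pump, ran the other way, with 13360, 18160 and 11960 CPM unstressed, 4561, 5221 and 8857 at 30 min and 16090, 16690 and 9459 at 3 h (log2 fold change 1.17 at 3 h versus 30 min, adjusted p = 0.00413, and 0.93 with adjusted p = 0.0507 without the 30 min library of replicate 1). QDR2, a multidrug and cation transporter, was higher at 3 h by 1.34 on the log2 scale. The sodium pump gene ENA1, named here outside the rule after its values were seen, had 42.1, 55 and 34.5 CPM unstressed, 755, 859 and 981 at 30 min and 541, 778 and 554 at 3 h. Only 14.8% of its 100-base windows occur once in the genome, and the neighbouring ENA copies may hold part of its reads.

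Most chaperone genes fell between 30 min and 3 h, and many, not all of them induced early, ended below the unstressed level. Of 23 chaperone genes, 18 were lower and 1 higher at 3 h than at 30 min, with a list median of -1.65, and at 3 h 12 of them were below and 7 above the unstressed level past the threshold. The median of the list against the unstressed mean was -0.44, -0.48 and -0.36 in the 3 h libraries and 1.29, 1.27 and 1.88 in the 30 min libraries. SSA4 (YER103W, chromosome V, 364589 to 366517), the stress-inducible Hsp70, had 20.2, 21.4 and 18.2 CPM unstressed, 1504, 1330 and 1408 at 30 min and 67.8, 60.5 and 132 at 3 h (log2 fold change -4.07 at 3 h versus 30 min, SE 0.29, adjusted p = 7.42e-10). BTN2 (YGR142W, chromosome VII, 772454 to 773686), a factor that sorts aggregated proteins, had 57.8, 37.6 and 87.1 CPM unstressed, 887, 735 and 777 at 30 min and 40.4, 21.3 and 56.2 at 3 h. HSP42, counted in the list of small heat shock proteins, and SIS1, a J-domain partner of Hsp70, fell by 3.44 and 2.57 on the log2 scale. For these 4 genes the 3 h libraries all lay below the 30 min libraries. Against unstressed cells at 3 h, SSA4 and HSP42 stayed above past the threshold (log2 fold change 2.07 and 1.33). BTN2 and SIS1 did not pass it (-0.64 and -0.48).

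Of the 23 chaperone genes, 14 were higher and 3 lower than unstressed at 30 min. HSC82, the constitutive Hsp90 gene, had 4839, 5171 and 4939 CPM unstressed, 5430, 5491 and 6630 at 30 min and 1692, 1798 and 1922 at 3 h. It fell by 1.70 on the log2 scale between 30 min and 3 h (SE 0.17, adjusted p = 9.96e-08). SSA2, a constitutive Hsp70 gene of which 54.0% of the windows occur once in the genome, had 5983, 7894 and 5655 CPM unstressed, 5774, 5596 and 9132 at 30 min and 2381, 2764 and 2036 at 3 h. HSC82 and SSA2 were among 4 chaperone genes in the late repressed class. RPN4, the transcription activator of proteasome genes, fell by 1.78 on the log2 scale, to 130.5, 110.2 and 154 CPM at 3 h against 414, 465 and 469.7 at 30 min. Of 33 proteasome genes in the list, which includes RPN4, 10 were lower and 2 higher, and the number lower was 19 without culture 3 and 6 without culture 1. The list's median in culture 3 was 0.15, against -0.41 and -0.63 in cultures 1 and 2.

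**Figure D2:**
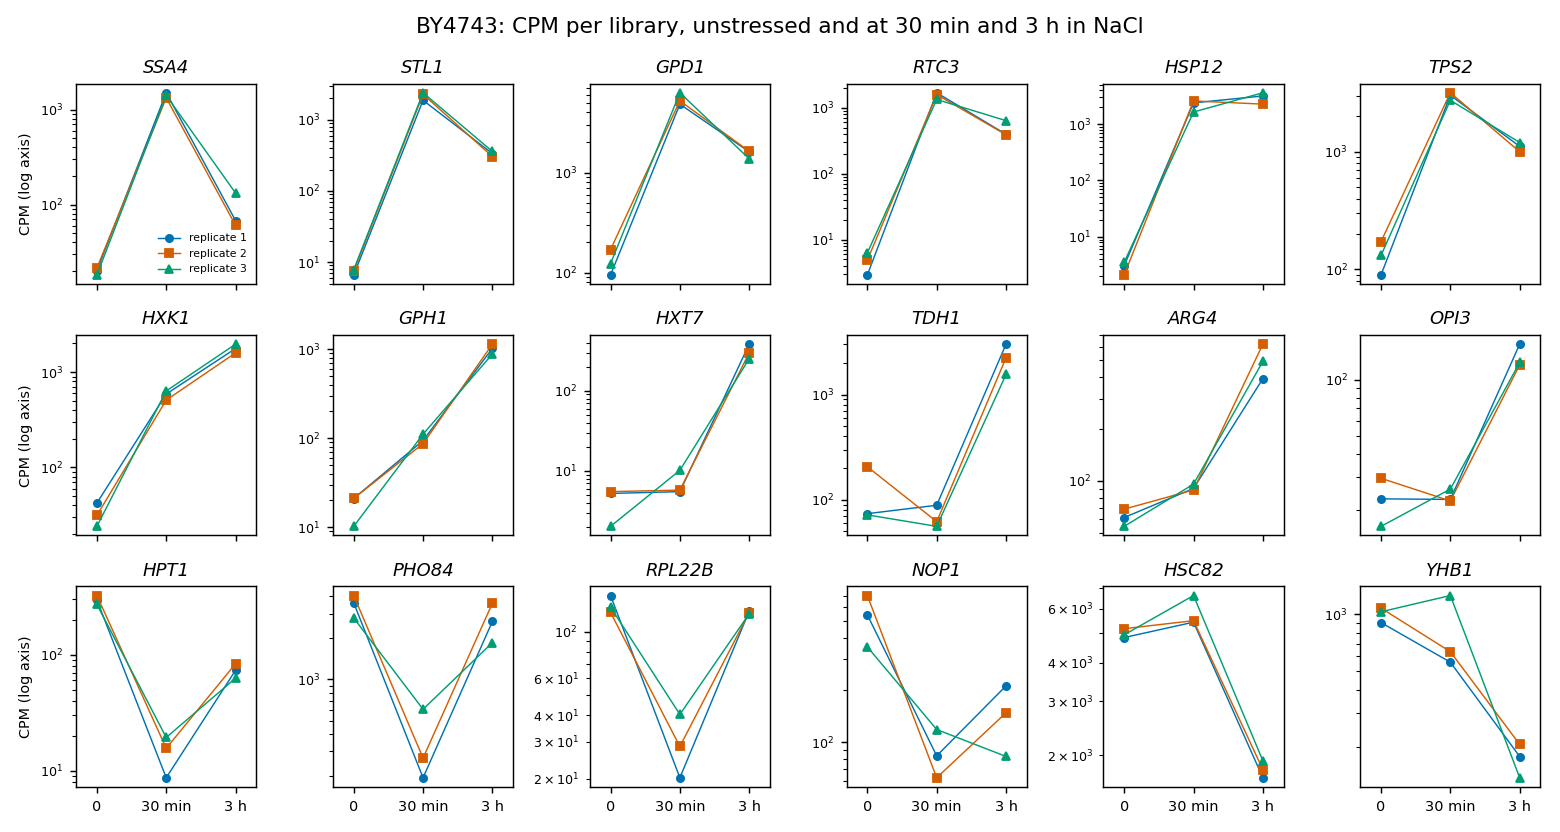
CPM on a log axis in each of the 9 BY4743 libraries for 18 genes, unstressed (0) and at 30 min and 3 h in NaCl, with lines joining libraries of the same replicate number. SSA4, STL1, GPD1, RTC3 and TPS2 peak at 30 min, HXK1 and GPH1 rise through 3 h, HXT7, TDH1, ARG4 and OPI3 rise between 30 min and 3 h, HPT1, PHO84 and RPL22B dip at 30 min, and HSC82 and YHB1 are lowest at 3 h.

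Trehalose and glycogen are the storage carbohydrates of yeast. TPS2, trehalose-6-phosphate phosphatase, had 89.8, 172 and 132 CPM unstressed, 3016, 3170 and 2733 at 30 min and 1110, 999 and 1198 at 3 h, and NTH1, the neutral trehalase, fell by 0.81 on the log2 scale from 30 min to 3 h (adjusted p = 0.000536). In the trehalose list 4 of 10 genes were lower and 1 higher, against 22.8% lower and 22.1% higher of all genes. In the glycogen list 5 of 10 were higher and 1 lower (no test of a difference between the lists was made), and all 10 were above the unstressed level past the threshold at 3 h. GPH1 (YPR160W, chromosome XVI, 861306 to 864014), glycogen phosphorylase, had 21, 21 and 10.2 CPM unstressed, 94.1, 86.7 and 111 at 30 min and 1024, 1142 and 884 at 3 h (log2 fold change 3.37 at 3 h versus 30 min, SE 0.21, adjusted p = 2.53e-10). GAC1, a targeting subunit of the phosphatase that activates glycogen synthase, was higher by 1.65, with 151, 105 and 98.5 CPM at 3 h against 78.4, 21 and 25.3 at 30 min, where the 30 min library of replicate 1 was the high one. PIG2, a related targeting subunit, ran against the list, with 21.9, 13.3 and 25.1 CPM at 3 h against 128, 107 and 86.4 at 30 min. Without culture 1 or culture 2, 3 glycogen genes were higher in place of 5.

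The 56 early induced genes that went on rising included DDR2, RTN2, PGM2, HXK1 and SIP18. DDR2 (YOL052C-A, chromosome XV, 231570 to 231755), a stress gene, had 0.194, 0.425 and 0.17 CPM unstressed, 36.5, 28.6 and 47.2 at 30 min and 77.7, 75.3 and 90.6 at 3 h. HXK1, a hexokinase, had 42.3, 31.4 and 24.1 CPM unstressed, 589.9, 509 and 635 at 30 min and 1770, 1593 and 1968 at 3 h, a further log2 rise of 1.62 (SE 0.28, adjusted p = 7.52e-05). PGM2, the major phosphoglucomutase, rose further by 0.75 and RTN2, a reticulon, by 0.8. SIP18, a hydrophilin, was at 13, 9 and 18.7 CPM at 3 h against 8.05, 6.92 and 5.22 at 30 min. GSC2, a stress-induced subunit of glucan synthase, belonged to the same class, with 1239, 1499 and 935 CPM at 3 h against 246, 282 and 334 at 30 min. In each of these 6 genes the 3 h libraries all lay above the 30 min libraries. Without culture 3 the class had 35 genes, and without the 30 min library of replicate 3 SIP18 did not pass the threshold (0.51, adjusted p = 0.258).

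For the 295 induced genes that held, the change between 30 min and 3 h did not pass the threshold. HSP12 (YFL014W, chromosome VI, 107256 to 107585), a small hydrophilin of the membrane and the largest early riser, had 3.1, 2.12 and 3.56 CPM unstressed, 2368, 2565 and 1632 at 30 min and 3142, 2252 and 3581 at 3 h, with overlapping libraries in NaCl (log2 fold change 0.44 at 3 h versus 30 min, SE 0.29, adjusted p = 0.235). HXT5, a hexose transporter of slow growth, had 6.21, 9.56 and 6.11 CPM unstressed, 684, 694 and 710.0 at 30 min and 541, 622 and 592 at 3 h. Its 3 h libraries all lay below the 30 min ones, but the change did not pass the threshold (-0.26, adjusted p = 0.259). NQM1, a transaldolase paralogue, and the genes TMA10 and FMP16 changed between 30 min and 3 h by -0.45, 0.21 and 0.34 on the log2 scale, none past the threshold. NQM1 passed it as lower without the 30 min library of replicate 3 (-1.02, adjusted p = 0.00421). The signs for TMA10 and FMP16 rest on culture 3, without which they were -0.096 and -0.022.

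The largest rises between 30 min and 3 h among the genes named were those of HXT7 and TDH1. HXT7 (YDR342C, chromosome IV, 1154216 to 1155928), a high-affinity glucose transporter, had 5.24, 5.52 and 2.04 CPM unstressed, 5.52, 5.77 and 10.2 at 30 min and 382, 297 and 251 at 3 h (log2 fold change 5.46 at 3 h versus 30 min, SE 0.32, adjusted p = 2.05e-10). Only 5.1% of its windows occur once in the genome, so its counts cannot be separated from those of its near-identical neighbour. HXT4, another glucose transporter, had 274, 217 and 142 CPM at 3 h against 21.9, 30 and 57.1 at 30 min. TDH1 (YJL052W, chromosome X, 338271 to 339269), the stress isoform of glyceraldehyde-3-phosphate dehydrogenase, had 73.8, 206 and 71.8 CPM unstressed, 88.7, 61.9 and 55.8 at 30 min and 3023, 2244 and 1555 at 3 h, a log2 rise of 5.02 (SE 0.39, adjusted p = 2.62e-09). ENO1, an enolase, had 10480, 8151 and 6093 CPM at 3 h against 996, 794 and 1049 at 30 min. The whole glycolysis list was less uniform, with 7 of 22 genes higher and 2 lower, and 12 higher without culture 3 but 4 without culture 1 or culture 2. Its median was 0.86 and 0.68 in cultures 1 and 2 and -0.48 in culture 3.

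Respiratory genes were mostly higher at 3 h. Of 34 genes of the respiratory chain and ATP synthase, 29 were higher at 3 h than at 30 min, with a median log2 fold change of 1.02, and 25 were higher than unstressed. At 30 min 16 of the 34 had been lower and 10 higher than unstressed. The list's median against the unstressed mean was 0.82, 0.68 and 0.51 in the 3 h libraries and -0.56, -0.44 and -0.14 in the 30 min libraries. NDE1, the external NADH dehydrogenase of mitochondria, had 416, 607 and 487 CPM unstressed, 114, 121 and 243 at 30 min and 579, 649.8 and 466 at 3 h. ATP18, a subunit of the ATP synthase, had 104, 106 and 78.2 CPM at 3 h against 23.7, 27.5 and 30.3 at 30 min (log2 fold change 1.82, adjusted p = 2.25e-08), and COX4, of cytochrome c oxidase, was higher by 1.44. With each culture left out in turn, 24 to 29 of the 34 genes were higher.

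Of 17 genes of the tricarboxylic acid (TCA) cycle, 14 were higher at 3 h, among them the aconitase gene ACO1 (2.09), with 2611, 2570 and 1681 CPM at 3 h against 515, 436 and 639.6 at 30 min, and SDH2 of succinate dehydrogenase (1.23). Without cultures 1 and 2 the counts were 8 and 9. Genes of gluconeogenesis moved the other way, with 7 of 14 lower and 1 higher at 3 h. MDH2, the cytosolic malate dehydrogenase, had 149.5, 154 and 169.5 CPM at 3 h against 333, 483 and 614 at 30 min, and MLS1, malate synthase, fell by 1.22 on the log2 scale, whereas CAT2, a carnitine acetyltransferase gene, was the higher one (1.55). Without culture 3, 3 of the 14 were lower. MPC3 (YGR243W, chromosome VII, 977336 to 977776), a subunit of the mitochondrial pyruvate carrier, had 2.13, 2.55 and 1.19 CPM unstressed, 364, 434 and 659 at 30 min and 41.1, 32.1 and 39.4 at 3 h. Among 20 oxidant defence genes 11 were higher (7 without culture 1) and 2 lower at 3 h, with SOD1, the cytosolic superoxide dismutase, at 838, 706 and 859 CPM at 3 h against 266, 223 and 316 at 30 min.

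**Figure D3:**
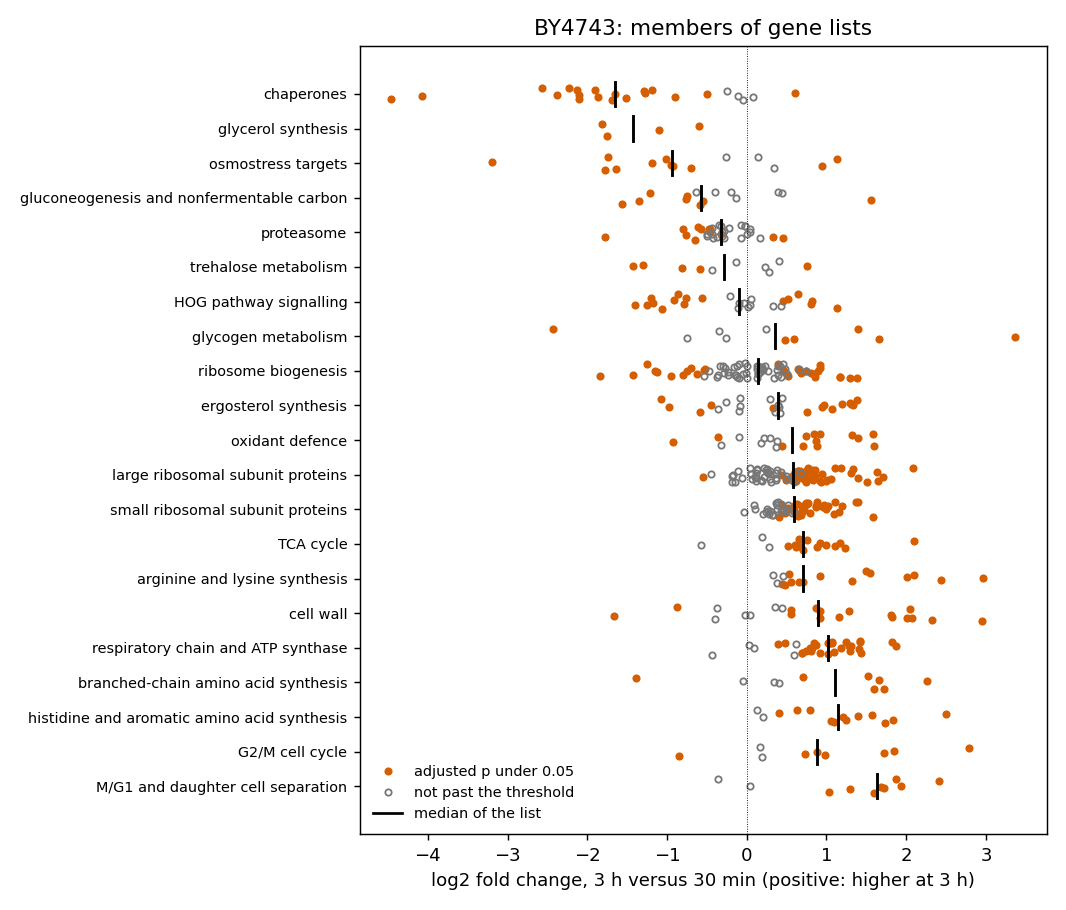
Log2 fold change at 3 h versus 30 min for each tested member of 21 gene lists, filled where the adjusted p was under 0.05 and open where it was not, with a bar at the list's median. Chaperones (median -1.65) and glycerol synthesis (-1.43) lie to the left, and respiratory genes (1.02) and genes of daughter cell separation (1.64) to the right.

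Ribosomal protein genes, which are needed in proportion to growth, had fallen at 30 min in 75 of 82 large subunit and 56 of 56 small subunit members. At 3 h 42 of the 82 and 33 of the 56 were higher than at 30 min, with median log2 fold changes of 0.57 and 0.59, and 65 and 53 were still lower than unstressed. RPL22B had 149, 124 and 131 CPM unstressed, 20.2, 28.5 and 40.5 at 30 min and 126, 124 and 122 at 3 h (log2 fold change 2.09 at 3 h versus 30 min, adjusted p = 7.95e-09). RPS10A had 2640, 2476 and 2550 CPM unstressed, 409.5, 464 and 716 at 30 min and 2128, 1297 and 1326 at 3 h. With TMM the rise was not shared by all cultures. The median change between 30 min and 3 h was 1.0 and 0.75 for large subunit genes in cultures 1 and 2 and -0.06 in culture 3, and 1.0, 0.93 and -0.09 for small subunit genes. Scaled by library totals, the median of all genes changed by -0.32, -0.32 and 0.24 in cultures 1, 2 and 3, so this contrast moves with the scaling. Library totals gave 46 large and 37 small subunit genes as higher. The large subunit list stood at -0.63, -0.72 and -0.95 against the unstressed mean in the 3 h libraries and at -1.62, -1.52 and -0.85 in the 30 min libraries. Large subunit genes counted as higher numbered 60 without culture 3, 12 without culture 1, 19 without culture 2, 21 without the 30 min library of replicate 1 and 64 without that of replicate 3, and small subunit genes 50, 8, 10, 15 and 52.

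Genes of ribosome assembly stayed low. Of 76 ribosome biogenesis genes, 17 were higher and 12 lower at 3 h than at 30 min, against 22.1% and 22.8% of all genes. The median change of the list was 0.14, and all 76 were below the unstressed level at 3 h, against 19.1% of all genes. The list's median against the unstressed mean was -1.73, -1.51 and -1.49 in the 3 h libraries and -1.74, -1.57 and -1.65 in the 30 min libraries, which overlap. NOP1, the nucleolar methyltransferase fibrillarin, had 542, 700.2 and 354 CPM unstressed, 83.3, 62.3 and 118 at 30 min and 211, 148 and 82.7 at 3 h (log2 fold change 0.65 at 3 h versus 30 min, adjusted p = 0.065), and its change passed the threshold under some alternatives, as without culture 3. NSR1, a nucleolin-like protein gene, recovered in part, with 271, 422 and 252 CPM unstressed, 15.6, 23.5 and 39.1 at 30 min and 50, 95.5 and 58.5 at 3 h. NUG1, a GTPase of 60S assembly, fell further, to 66.3, 75.3 and 74.8 CPM at 3 h against 168, 213 and 204 at 30 min (log2 fold change -1.43, adjusted p = 1.31e-06). MAK5, listed among the lower genes, had 48.1, 73 and 73.8 CPM at 3 h against 1094, 96.5 and 69.7 at 30 min, and without the high library of replicate 1 its log2 fold change was -0.29 (adjusted p = 0.379). Without culture 1, 14 genes of the list were higher and 6 lower, and without culture 2, 11 and 9. Of 19 RNA polymerase I and III subunits, 18 were still lower than unstressed at 3 h, and RPA12 of polymerase I was among 5 that rose against 30 min (1.48).

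HPT1 (YDR399W, chromosome IV, 1270068 to 1270733), which salvages purines, had the largest early log2 fall of the recovering repressed genes (-4.39) after low-count genes were set aside, with 296, 323 and 271 CPM unstressed, 8.68, 15.6 and 19.3 at 30 min and 73.3, 83.5 and 62.8 at 3 h. RRS1, a ribosome assembly factor, had 120.1, 96.4 and 108 CPM unstressed, 7.89, 7.5 and 9.39 at 30 min and 17.8, 21.9 and 32 at 3 h. PRM7 and BSC1, adjacent genes on chromosome IV, were higher at 3 h than at 30 min by 1.18 and 1.26 on the log2 scale and remained -3.09 and -2.77 from the unstressed level. Among repressed genes that held, CTR1, the high-affinity copper transporter, had 12.7, 11.7 and 11.6 CPM at 3 h against 11.1, 14.8 and 13.3 at 30 min, and FRE1, its partner reductase, 32, 42.1 and 21.1 against 40.7, 46.9 and 48.3. Unstressed, both were far lower in replicate 3 than in the others (180.5, 160.3 and 54.7 CPM for CTR1 and 559.7, 532 and 113 for FRE1). ARX1 and MAK16, of 60S ribosome assembly, changed by 0.48 and 0.75 between 30 min and 3 h, which did not pass the threshold, but ARX1 passed it without the 30 min library of replicate 3 (0.92, adjusted p = 0.000214).

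Most genes of daughter cell separation, and over 1 in 2 of the G1/S and G2/M genes, were higher at 3 h. Of 10 genes of the M/G1 boundary and daughter cell separation, 8 were higher than at 30 min, with a median of 1.64, after 7 had been lower at 30 min than unstressed. SCW11, a cell wall hydrolase of daughter cells, had 234, 321 and 231 CPM unstressed, 58.5, 51.5 and 72.8 at 30 min and 339, 390.0 and 257 at 3 h (log2 fold change 2.41 at 3 h versus 30 min, adjusted p = 2.85e-07). AMN1 and ASH1, both expressed in daughter cells, were higher by 1.93 and 1.87. The mitotic cyclin genes CLB1 and CLB2 were both higher at 3 h. CLB1 had 74.5, 62.2 and 66.7 CPM unstressed, 22.9, 31.1 and 18.5 at 30 min and 149.5, 167 and 184 at 3 h, and CLB2 had 124, 113 and 123 CPM at 3 h against 28.6, 31.1 and 40.7 at 30 min. In the G2/M list 6 of 9 genes were higher and 1 lower, and in the G1/S list 8 of 14 were higher and 1 lower. RNR1, the large subunit of ribonucleotide reductase, had 772, 863 and 700.5 CPM unstressed, 326, 395 and 689 at 30 min and 2867, 2892 and 1643 at 3 h. The G1/S count was 5 without culture 2 or culture 3, and that of G2/M 4 without culture 3. The counts of M/G1 genes were 7 or 8 with each culture left out.

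Of 22 cell wall genes 14 were higher and 2 lower at 3 h, and 14 were higher without culture 3 but 10 without culture 1 or culture 2. The list's median was 1.27 and 1.28 in cultures 1 and 2 and 0.31 in culture 3. PST1, a cell wall integrity target, had 144, 215 and 132 CPM unstressed, 66.8, 65 and 88.7 at 30 min and 638, 606 and 478 at 3 h. CWP2, a covalently linked mannoprotein gene, had 1958, 1663 and 1428 CPM at 3 h against 247, 273 and 511 at 30 min. Outside the list, EXG1, an exo-1,3-beta-glucanase, had 930.4, 1128 and 736 CPM unstressed, 164, 199 and 231 at 30 min and 2319, 2239 and 1454 at 3 h (log2 fold change 3.31 at 3 h versus 30 min, adjusted p = 6.36e-10), and HPF1, a wall mannoprotein gene, rose by 2.87. PRY1, a secreted sterol-binding protein, went to 246, 166 and 138 CPM at 3 h against 16.7, 12.1 and 20.1 at 30 min. In the ergosterol list 10 of 25 genes were higher and 4 lower, led by ERG28, ERG3 and ERG25 (1.38, 1.33 and 1.31). The number higher was 14 without culture 3 and 7 without culture 1 or culture 2. This list's median was 0.82 and 0.74 in cultures 1 and 2 and -0.17 in culture 3.

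Of 17 arginine and lysine synthesis genes, 14 were higher at 3 h than at 30 min (22.1% of all genes were), with a median of 0.71, and 12 were higher than unstressed. ARG4 and ARG1, the last steps of arginine synthesis, were both higher. ARG4 had 61.3, 68.6 and 54.5 CPM unstressed, 90.4, 88.7 and 95.8 at 30 min and 392, 622 and 494 at 3 h (log2 fold change 2.43 at 3 h versus 30 min, SE 0.17, adjusted p = 3.78e-10), and ARG1 had 147, 274 and 190.1 CPM at 3 h against 36.8, 43.8 and 59.2 at 30 min. Without culture 1 or culture 2, 9 of the 17 genes were higher. Of 14 histidine and aromatic amino acid genes 12 were higher, with a median of 1.15, and 10 to 11 with each culture left out. ARO1, a pentafunctional enzyme of the shikimate route, had 720.0, 873 and 621 CPM unstressed, 283, 305 and 411 at 30 min and 1821, 2431 and 1490 at 3 h, and ARO3 was higher by 1.83. In the branched-chain list 6 of 10 were higher and 1 lower, with LEU4, the first enzyme of leucine synthesis, at 1917, 2225 and 1376 CPM at 3 h against 332, 321 and 471 at 30 min. The branched-chain list's median was 1.34 and 1.62 in cultures 1 and 2 and 0.34 in culture 3. Of 24 sulfate and methionine genes 5 were higher and 2 lower, with a median of 0.08, and 3 were higher without culture 1 and 9 without the 30 min library of replicate 3. LEU2 is deleted and HIS3 partly deleted in the strain.

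Other late genes had single functions. YRO2, a membrane protein gene with no settled role, had 52, 120.0 and 59.9 CPM unstressed, 62.2, 45.8 and 51.1 at 30 min and 659.7, 557 and 396 at 3 h. OPI3, a methyltransferase of phosphatidylcholine synthesis, had 155, 119.9 and 124 CPM at 3 h against 22.7, 22.3 and 25.8 at 30 min, and NNR1, an epimerase that repairs damaged NADH, 83.9, 66.1 and 63.6 against 12.9, 9.81 and 13.3. UIP4 had 24.5, 12.9 and 29.8 CPM at 3 h against 4.1, 4.62 and 0.261 at 30 min, where the library of replicate 3 was below the detection floor. Among late repressed genes YHB1, the nitric oxide oxidoreductase, had 906, 1080 and 1033 CPM unstressed, 559, 635 and 1259 at 30 min and 177, 205 and 137 at 3 h. CMK2, a calmodulin-dependent kinase gene, had 90.4, 63.6 and 81.8 CPM at 3 h against 288, 259 and 162 at 30 min. TIR1, a mannoprotein gene of cold and low oxygen, fell to 8.17, 4.91 and 3.92 CPM at 3 h against 17.7, 9.81 and 20.6 at 30 min.

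The largest falls held genes beyond the stress lists. GAL2, the galactose permease, had 3.49, 4.25 and 4.58 CPM unstressed, 55.4, 46.9 and 88.5 at 30 min and 3.37, 5.93 and 3.63 at 3 h. FRE4, a ferric reductase gene, had 15.7, 21 and 14.1 CPM unstressed, 146, 179 and 183 at 30 min and 19.2, 17.4 and 14.1 at 3 h. DIA3 had 4.57, 7.36 and 10.6 CPM at 3 h against 83, 94.4 and 113 at 30 min, and the kinase gene PRR2 had 19.2, 21.1 and 31.2 at 3 h against 232, 303 and 334 at 30 min. YJL107C had 45.2, 47.5 and 80.2 CPM at 3 h against 501, 685 and 459.5 at 30 min. DIA3 and YJL107C each overlap another gene on the same strand, so their counts are uncertain. GAL2 and FRE4 returned to within 0.06 of the unstressed level on the log2 scale, and DIA3, PRR2 and YJL107C stayed above it by 2.27, 2.25 and 2.31. YOR082C, YJR115W and AI5_ALPHA, a mitochondrial intron-encoded gene, were also among the 12 largest falls, but only through the 30 min library of replicate 1, where they had 461, 9735 and 874 counts, against 2 and 1, 37 and 55, and 21 and 7 in replicates 2 and 3. Without that library YJR115W changed by -0.83 (adjusted p = 0.0227) and AI5_ALPHA by -0.89 (adjusted p = 0.177), and YOR082C fell under the filter on low counts. The 12 largest rises also held GPG1, at 44.7, 34.4 and 44.7 CPM at 3 h against 4.89, 4.42 and 3.91 at 30 min, and the phosphate transporter gene PHO84, at 2629, 3566 and 1845 against 193, 268 and 605.

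In the promoters, from 250 bases before to 50 after the start codon, AGGGG on either strand was present in 31.8% of 623 recovering induced, 39.4% of 279 holding induced, 50% of 56 growing induced and 33.3% of 63 late induced genes, against 21.6% of all 6005 promoters. GATGAG on either strand was present in 24.1% of 440 recovering repressed, 63.1% of 279 holding repressed, 77.3% of 22 growing repressed and 45.5% of 22 late repressed genes, against 20.4% of all. Over the 200 bases before the start codon alone the shares were lower, at 23.3%, 31.5%, 37.5% and 28.6% for AGGGG in the induced classes in the same order (15.3% of all) and 18.6%, 55.2%, 77.3% and 22.7% for GATGAG in the repressed ones (13.4% of all). TGACTC, the Gcn4 site, was present in 11.1% of late induced promoters against 8.0% of all, and ACGCGT, the MluI cell cycle box, in 2.7% of recovering repressed promoters against 3.1%. These matches are letters in a window, not measured binding, and no test was made on them.

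The same genes were followed in the wild strains, whose libraries entered the fit that set the classes through its estimate of the spread and not through the BY4743 fold changes. Of the 661 genes that recovered from induction in BY4743, 22.2% were higher and 21.5% lower at 3 h than at 30 min in BC187 (27.1% and 21.8% of all genes). NCYC3290 had 37.4% of them higher and 13.9% lower (26.3% and 25.2% of all genes). In YPS128, with fewer paired cultures (no 30 min library of replicate 3), 60.2% were higher and 2.1% lower (28.5% and 24.8% of all genes). Their median log2 change was -1.17 for BY4743, less than 0.01 in size for BC187, 0.29 for NCYC3290 and 1.03 for YPS128. Medians of the 447 recovering repressed genes were 1.06, -0.09, -0.48 and -1.07 in that order of strains. Genes that held in BY4743 had medians, in the same order of strains, of -0.11, 0.97, 1.06 and 1.67 for the 295 induced and 0.18, -0.99, -1.16 and -1.15 for the 282 repressed. The 63 late induced genes had medians of 1.46, 1.66, 1.41 and 1.21.

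**Figure D4:**
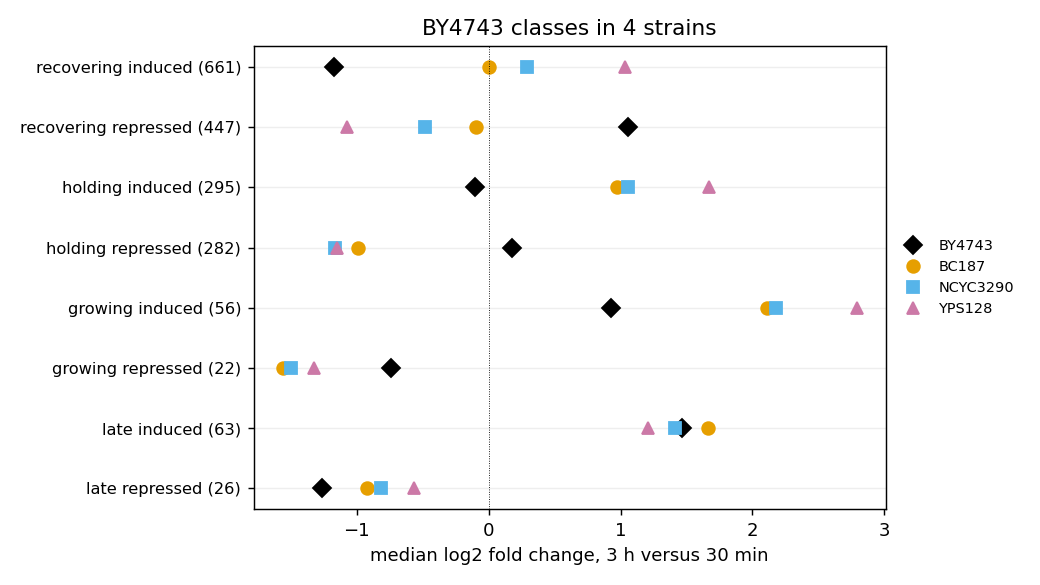
Median log2 fold change at 3 h versus 30 min, on the x axis, of the 8 classes set in BY4743, in that strain and in the wild strains BC187, NCYC3290 and YPS128, with the number of genes in parentheses. BY4743 lies on the opposite side of 0 from YPS128 for the recovering and holding classes and on the same side for the growing and late classes.

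The difference between BY4743 and the mean of the wild strains in the change from 30 min to 3 h passed the threshold for 3536 genes (59.0%), 1621 (27.0%) with a higher and 1915 (31.9%) with a lower value in BY4743. With library totals in place of TMM the median difference of all genes shifted by -0.700, and 17.1% of the called genes had the higher value in BY4743, against 45.8%. STL1 changed by -2.71 on the log2 scale in BY4743 and by 0.57, 1.66 and 4.6 in BC187, NCYC3290 and YPS128 (difference -4.99, adjusted p = 9.37e-10). PHM7 changed by -2.35 in BY4743 and by 1.39, 2.87 and 4.79 in the wild strains. HSP12, which held in BY4743 (0.44), changed by 2.02, 4.34 and 6.86. The genes GPH1, HSC82, NNR1 and YRO2 did not pass the threshold for a difference, at -0.03 (SE 0.23), 0.03 (0.20), -0.14 (0.31) and 0.56 (0.41). RPL22B and CLB2 were higher at 3 h in BY4743 by 2.09 and 1.85 and changed by 0.66 to -0.75 and 0.34 to -1.33 from BC187 to YPS128, with NCYC3290 at 0.02 and -0.96. These genes were chosen for their change in BY4743, so the size of their differences is a description.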

How the data were processed

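The 9 BY4743 libraries were analysed within the deposited table of counts per gene. Per the paper's methods, the authors depleted rRNA, made stranded total RNA libraries, trimmed single-end reads with Trimmomatic, aligned them to the R64-1-1 reference by bwa-mem, and used HT-Seq for gene counts. Deposited values are raw counts with no normalization or filter. How HT-Seq treated strand and multiply mapped reads is not given in the sources used here, so overlapping and near-identical genes are uncertain. The table has 6717 genes, of which 6025 matched the R64 annotation of RefSeq, and 0.1174% of counts lie on the others.

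Genes were filtered by edgeR's filterByExpr (version 4.0.16, R 4.3.3, limma 3.58.1), leaving 5997, scaled by TMM and fitted by the robust quasi-likelihood test to 34 libraries, without YPS128 replicate 3 at 3 h. The fit had 12 cultures as blocks, a time effect for each strain and 14 residual degrees of freedom. p-values were adjusted by Benjamini and Hochberg within each comparison, and the biological coefficient of variation was 16.76%. On simulated data for 3 h versus 30 min with 5970 genes, 91 of 100 genes changed by 1 on the log2 scale and 100 of 100 changed by 2 were recovered, and 6.37% of 204 calls were false. The simulation had no culture effects, no library that stood apart and few changed genes, so these rates need not hold for the data. The log2 CPM per library used a prior count of 2. Floors cover counting error only.

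The pairing by culture comes from the labels, whose growth text has successive samples taken from the same culture, and from the methods, which pair replicates. In a check of deviations from the group mean, same-numbered unstressed and 3 h libraries correlated at 0.101, 0.459 and 0.516. The 30 min libraries of replicates 2 and 3 did not follow their own numbers (-0.183 and -0.459 with 3 h). That of replicate 3 correlated with replicate 2 (0.388 at 3 h, 0.422 unstressed), and that of replicate 2 with replicate 3 (0.289 and 0.258). Whether these numbers were exchanged was not tested, and values given for cultures 2 and 3 rest on the labels.

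The genes named are the 12 largest rises and 12 largest falls at 3 h versus 30 min among called genes that had 1 sign in all 3 cultures and at least 50 counts on average, 5 genes per class under the same conditions, and the 3 members of each of 39 gene lists with the largest change. Of these, 1 gene is not reported here. Members and lists were chosen with earlier results of these data known. Alternatives tried were DESeq2's size factors and Wald test (1.42.0), library totals without TMM, low-count filters, fits with no or other replicate blocks and edgeR's likelihood ratio test. Others were all 35 libraries, the 9 BY4743 libraries alone, adjusted p under 0.01, other limits of the classes and each replicate number left out in every strain. A further 3 settings were added after the data were seen.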

Additional observations from a re-analysis of the deposited data

Results flagged for a closer look

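Of 23 genes with the largest changes between 3 h and 30 min in BY4743, 20 differed from the mean of the wild strains in that change. The limit was an adjusted p under 0.05 in edgeR's test of the difference itself, which 59.0% of all genes passed. For the 12 falls the log2 difference, BY4743 minus the wild mean, was -4.58 for DIA3, -3.99 for YJL107C, -3.93 for PRR2, -3.76 for SSA4, -2.99 for BTN2, -2.9 for GAL2, -2.81 for HSP42, -2.04 for FRE4 and -2.0 for MPC3. It was -6.91 for YOR082C, -3.45 for YJR115W and -2.82 for AI5_ALPHA, whose falls rest on the 30 min library of replicate 1. For the rises the difference was 3.86 for PHO84, 2.99 for HXT7, 2.81 for HPF1, 2.38 for TDH1, 1.8 for EXG1, 1.58 for PRY1, 1.19 for GPG1 and 1.11 for ENO1. The genes were chosen for large changes in BY4743, and that change is 1 side of the difference tested. The count of 20 therefore cannot be weighed against the 59.0% of all genes, and both the count and the sizes are a description.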

How the results depend on the processing

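Of the 2697 genes called at 3 h versus 30 min, 2622 were also called by DESeq2's Wald test, 2649 with DESeq2's size factors, 2602 without the replicate block and 1901 in the 9 BY4743 libraries alone. As to the pairing, a replicate block with the 30 min numbers 2 and 3 exchanged, added after the data were seen, called 2991 genes, and one by number only, shared by the strains, 2942. For the 158 genes named by the rule, 2601 alternative values kept the direction and side of the threshold, 46 lost the threshold, 25 gained it and 6 turned direction, all of genes uncalled in the fit reported: TMA10 (-0.0961) and FMP16 (-0.0216) without culture 3, CTR1 (0.0167) without culture 2, and TMA10 (-0.0380), CTR1 (0.271) and FRE1 (0.0325) without the 30 min library of replicate 3. With each culture left out in turn TMA10 lay between -0.0961 and 0.435 and FMP16 between -0.0216 and 0.529, and CTR1 was -0.355 and FRE1 -0.889 without the 30 min library of replicate 1. Adjusted p under 0.01 left 880 genes lower at 3 h and 11 growing repressed. Library totals gave 274 recovering, 172 holding and 7 growing repressed genes. A minimum log2 change of 0.5 gave 790 recovering repressed, 479 holding induced, 532 holding repressed, 111 growing induced, 66 growing repressed, 208 late induced and 106 late repressed genes, and 1.5 gave 410 recovering induced, 230 recovering repressed, 159 holding induced, 92 holding repressed, 33 growing induced, 4 growing repressed, 17 late induced and 6 late repressed. Late genes numbered 34 induced and 13 repressed with a limit of 0.25 at 30 min, and 98 induced with 0.75. Without the 30 min library of replicate 3, 1560 genes were higher and 1560 lower. Each culture left out in turn gave 766 to 1335 genes higher, 766 to 1297 lower, 35 to 56 growing induced, 11 to 23 growing repressed and 17 to 28 late repressed. Motif shares fell in the window of 200 bases for GATGAG in all genes tested (13.5%) and AGGGG in them (15.6%), in all promoters (15.3% and 13.4% in AGGGG and GATGAG), and to 23.3%, 31.5%, 18.6%, 55.2% and 22.7% in the classes given above. The cause of these shifts was not tested, save that a stricter limit or shorter window holds fewer genes or matches by construction.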

Other observations

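In the phosphate regulon 6 of 13 genes were higher and 5 lower at 3 h than at 30 min in BY4743 (2 lower without culture 3), against 22.1% higher and 22.8% lower of all genes. PHO84, the transporter gene described above, was among the higher. PHO5, an acid phosphatase gene, had 656, 862 and 698 CPM unstressed, 304, 393 and 675 at 30 min and 134, 149 and 111 at 3 h (log2 fold change -1.75 at 3 h versus 30 min, adjusted p = 5.75e-07 from edgeR), and its 3 h libraries all lay below. PHO12, a related phosphatase gene, had 31.2, 35.6 and 28.3 CPM at 3 h against 46.9, 49.2 and 135 at 30 min, and without culture 3 its change did not pass the threshold (-0.53, adjusted p = 0.122). Only 24.8% of its windows occur once in the genome. YOL014W, another gene that fell at both steps, had 69.9, 96.2 and 76.9 CPM unstressed, 16.3, 18.1 and 36.8 at 30 min and 4.81, 5.11 and 2.76 at 3 h.

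The iron regulon had no common direction, since 6 of its 21 genes were higher and 6 lower, shares near those of all genes. FIT1, a wall mannoprotein that holds siderophores, had 4.27, 2.97 and 4.25 CPM unstressed, 57.9, 63.3 and 73.1 at 30 min and 19.5, 22.3 and 21.9 at 3 h, and HMX1, a heme oxygenase, had 2.91, 4.25 and 3.23 CPM unstressed, 29.7, 36.7 and 30.8 at 30 min and 4.33, 5.32 and 7.41 at 3 h. SIT1, a siderophore transporter, ran the other way, at 189, 177 and 123 CPM at 3 h against 47.8, 68.1 and 65.2 at 30 min. The count of higher genes in this list was 2 without culture 1 and 4 without culture 2. Nitrogen catabolite genes likewise split, and of 19 tested 7 were higher and 4 lower, and both proline genes named by the rule changed in opposite directions. PUT4, the proline permease, had 1.55, 1.7 and 1.19 CPM unstressed, 97.4, 77.3 and 114 at 30 min and 33.2, 23.3 and 25.7 at 3 h, and PUT1, proline oxidase, had 5.82, 10.4 and 7.3 CPM unstressed, 6.47, 4.23 and 7.05 at 30 min and 27.6, 31.1 and 27.8 at 3 h. Without culture 1, 3 genes of that list were higher, and without culture 3, 2 were lower. ADE17, of purine synthesis, fell at both steps (-0.97 at 3 h versus 30 min and -1.28 at 30 min versus unstressed).

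Smaller lists were mixed, beside 22.1% of all genes higher and 22.8% lower. At 3 h versus 30 min, 5 of 16 purine and one-carbon genes were higher and 4 lower, but 4 and 6 when scaled by library totals. Of 10 histone genes 4 were higher and 1 lower. Of 21 hexose transport and glucose sensing genes 9 were higher and 2 lower, and 5 and 4 without culture 2. Of 13 calcineurin and calcium genes 2 were higher and 5 lower, and of 9 autophagy genes 2 were higher and 4 lower (2 lower without culture 1 or culture 2). Of 6 small heat shock proteins and hydrophilins 1 was higher and 3 lower, and of 17 seripauperins and related mannoproteins 1 was higher and 3 lower (1 lower without culture 1).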
